A study of Mus musculus with 6 samples.

Results

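The genes described here are 10 mouse glutathione S-transferase (GST) genes, Gsta3, Gsta4, Gstm1, Gstm5, Gstp1, Gsto1, Gstt2, Mgst1, Mgst2 and Mgst3, of the 24940 genes in a table of RNA-seq values, and all 10 were found there by symbol. The set was selected on a measured value, the rise of Gsta3 and Mgst2 in cells given a plant extract. Differences between extract and no extract under RANKL are therefore given for these 10 genes as a description without a test, and so are the levels of Gsta3 and Mgst2 with extract against cells without RANKL. The cells were osteoclast precursors, which are macrophages grown from mouse bone marrow, and every culture received the macrophage growth factor M-CSF at 30 ng/mL. In 2 libraries there was no RANKL (-R). In 2 others RANKL, the cytokine that turns these precursors into bone-resorbing osteoclasts, was present at 100 ng/mL (+R). The remaining 2 received the same RANKL together with the methanolic leaf extract of Abeliophyllum distichum (LE), for which the labels give 10 μg/mL (R+LE). Treatment lasted 3 days. Before it came a precursor step common to all libraries, for which the labels list M-CSF at 5 ng/mL and 3 days. The study's methods place 5 ng/mL at the isolation of the marrow cells and 30 ng/mL in the 3 days after it. No genetic change is named for any group. According to the labels the mice were C57BL/6, at an age of 6 to 8 weeks, but the study's methods name male ICR mice, so the strain is not settled here. The sources used here do not state whether the cultures without LE received its solvent, or which animals each library came from, and p-values therefore measure the spread between libraries, which may be technical.

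Values are RPKM, read counts divided by the transcript length and by the mapped reads of the library, and counting was done without regard to strand. Whole reads could be recovered from the values, which put the depth between 29390215 and 34846375 mapped reads per library. Between 74.2% and 80.7% of them lay on genes. The ribosomal RNA gene Rn45s took 6.83% and 4.97% of the gene reads without RANKL, 10.9% and 11.1% with RANKL alone, and 11.2% and 13.5% with LE added, so this share was higher in the libraries with RANKL, and its part in the GST values was not tested. The limit that a count of 0 allows, set at 3 reads, was at most 0.102 RPKM for a 1 kb transcript. The 3 groups were fitted together with limma on log2(RPKM + 0.5) for the 11595 genes whose mean reached 0.5 RPKM. A gene was called at a Benjamini-Hochberg adjusted p-value below 0.05 and a change of at least 2-fold on that scale, where the pseudocount makes changes at low RPKM look smaller than they are. The smallest two-sided p that exact permutation of 2 libraries against 2 can give is 0.333, so the adjusted p-values rest on a spread shared across genes. All 8 macrophage markers examined had more than 3 reads in every group, with a summed level of 6732 to 7319 RPKM in -R, 2692 to 3455 RPKM in +R and 3764 to 4206 RPKM in R+LE. Summed over 8 osteoclast markers, the level was 43.2 to 44.8 RPKM in -R, 1866 to 2123 RPKM in +R and 329.2 to 379.98 RPKM in R+LE. Among them Calcr, the calcitonin receptor, and Oscar, an osteoclast co-receptor, were listed at 0 in both -R libraries. R+LE replicate 1 held higher values than R+LE replicate 2 for all 10 GST genes and for 69.1% of the 11595 genes tested.

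GST enzymes join the small peptide glutathione to electrophilic compounds, which makes these compounds more soluble and marks them for export. The soluble enzymes are grouped into classes that include alpha (Gsta), mu (Gstm), pi (Gstp), omega (Gsto) and theta (Gstt). The microsomal enzymes (Mgst) are membrane proteins of an unrelated family, MAPEG, some members of which take part in making leukotrienes or prostaglandins. Many GST genes carry antioxidant response elements in their promoters, through which the transcription factor Nrf2 and its small Maf partners act, while Bach1 can occupy such sites as a repressor. In macrophages under RANKL, reactive oxygen species are part of the signal that leads to osteoclasts.

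The sequence just upstream of the start site is shown for the 2 genes on whose rise the set was selected, for the 2 further genes with a called fall under RANKL, and for Gstp1, whose level passed no threshold in a tested comparison. For 7 of the 10 genes RefSeq (GRCm38.p6, the assembly that the files call mm10) held a promoter whose start site was that of the transcript counted. The 250 bases before that site were searched on both strands for TGACNNNGC and TGAGNNNGC, which are core forms of the antioxidant response element, for the AP-1 site TGACTCA and for GCGTG, the core at which the aryl hydrocarbon receptor binds. Capitals mark matches on either strand to the first 3 of these motifs. Each sequence is written on the strand of its gene and ends 1 base before the start site.
Gsta3, chr1:21240335-21240584, plus strand: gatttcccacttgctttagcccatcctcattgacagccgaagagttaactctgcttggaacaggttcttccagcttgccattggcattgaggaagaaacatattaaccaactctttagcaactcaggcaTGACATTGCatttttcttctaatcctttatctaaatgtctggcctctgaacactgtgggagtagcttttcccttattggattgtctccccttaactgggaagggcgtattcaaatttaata
Mgst2, chr3:51660929-51661178, plus strand: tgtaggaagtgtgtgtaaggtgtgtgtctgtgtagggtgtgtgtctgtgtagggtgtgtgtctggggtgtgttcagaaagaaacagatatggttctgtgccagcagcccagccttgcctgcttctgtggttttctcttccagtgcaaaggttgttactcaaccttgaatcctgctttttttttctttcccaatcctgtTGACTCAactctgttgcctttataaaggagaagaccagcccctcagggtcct
Mgst1, chr6:138140277-138140526, plus strand: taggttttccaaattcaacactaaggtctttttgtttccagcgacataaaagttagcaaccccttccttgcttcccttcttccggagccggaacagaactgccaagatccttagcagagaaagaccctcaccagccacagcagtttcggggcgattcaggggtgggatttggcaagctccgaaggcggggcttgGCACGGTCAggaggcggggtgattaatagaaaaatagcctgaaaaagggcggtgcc
Gstm1, chr3:108017974-108018223, minus strand: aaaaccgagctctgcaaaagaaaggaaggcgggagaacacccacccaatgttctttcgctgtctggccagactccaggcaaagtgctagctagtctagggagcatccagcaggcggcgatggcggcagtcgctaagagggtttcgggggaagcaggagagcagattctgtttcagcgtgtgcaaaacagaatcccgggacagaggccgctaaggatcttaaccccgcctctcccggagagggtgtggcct
Gstp1, chr19:4037913-4038162, minus strand: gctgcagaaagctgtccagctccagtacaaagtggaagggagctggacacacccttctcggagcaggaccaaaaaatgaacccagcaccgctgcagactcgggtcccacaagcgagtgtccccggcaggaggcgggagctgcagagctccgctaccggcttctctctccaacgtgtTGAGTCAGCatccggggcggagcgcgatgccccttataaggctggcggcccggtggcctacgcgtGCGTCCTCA

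The Gsta3 window held TGACATTGC, from 121 to 113 bases upstream of the start. The Mgst2 window held neither core form of the antioxidant response element, but it held TGACTCA from 52 to 46 bases upstream. In Mgst1 a match to TGACNNNGC lay on the opposite strand, 56 to 48 bases upstream, and reads GCACGGTCA on the strand shown. In Gstp1, TGAGTCAGC lay 74 to 66 bases upstream and is at the same time a match to TGAGNNNGC and, on the opposite strand, to TGACTCA. A second match to TGAGNNNGC, read as GCGTCCTCA on the strand shown, ended at the base before the Gstp1 start and shared 1 base with a GCGTG. Gstm1 held none of these 3 motifs, and 1 GCGTG. The Gstm5 window, not shown, held all 4 motifs, with GCGTG overlapping both TGACTCA and TGACNNNGC, and the Gsto1 window held none. At least 1 of the 2 antioxidant response element cores was present in 4 of the 7 windows (Gsta3, Gstm5, Gstp1 and Mgst1), against 23.0% of the 32851 promoter windows of the same length in the table. The shares of all windows were 10.2% for TGACNNNGC, 14.4% for TGAGNNNGC, 4.46% for TGACTCA and 28.2% for GCGTG. A match says only that these letters are present.

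The 10 genes fell into groups with unlike courses over the 3 conditions. Gsta3, Gstm1 and Mgst1 were lower in +R than in -R and higher again in R+LE. Mgst2 was high in R+LE only. Gsto1 was higher under RANKL with and without LE, and Gstt2 was highest in +R. Gstp1 and Mgst3 passed no threshold in a tested comparison. Between +R and -R, 9 of the 10 genes passed the filter, and of these 3 were called lower, where 8.92% of all tested genes were called lower. None was called higher, against 6.58% of all genes. Gsta3 among the 3 and Mgst2 among the 9 were selected on a rise from the same +R libraries. These counts are therefore not free of the selection. Fewer cells of a type and less RNA per cell cannot be told apart in these bulk libraries.

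**Figure D1:**
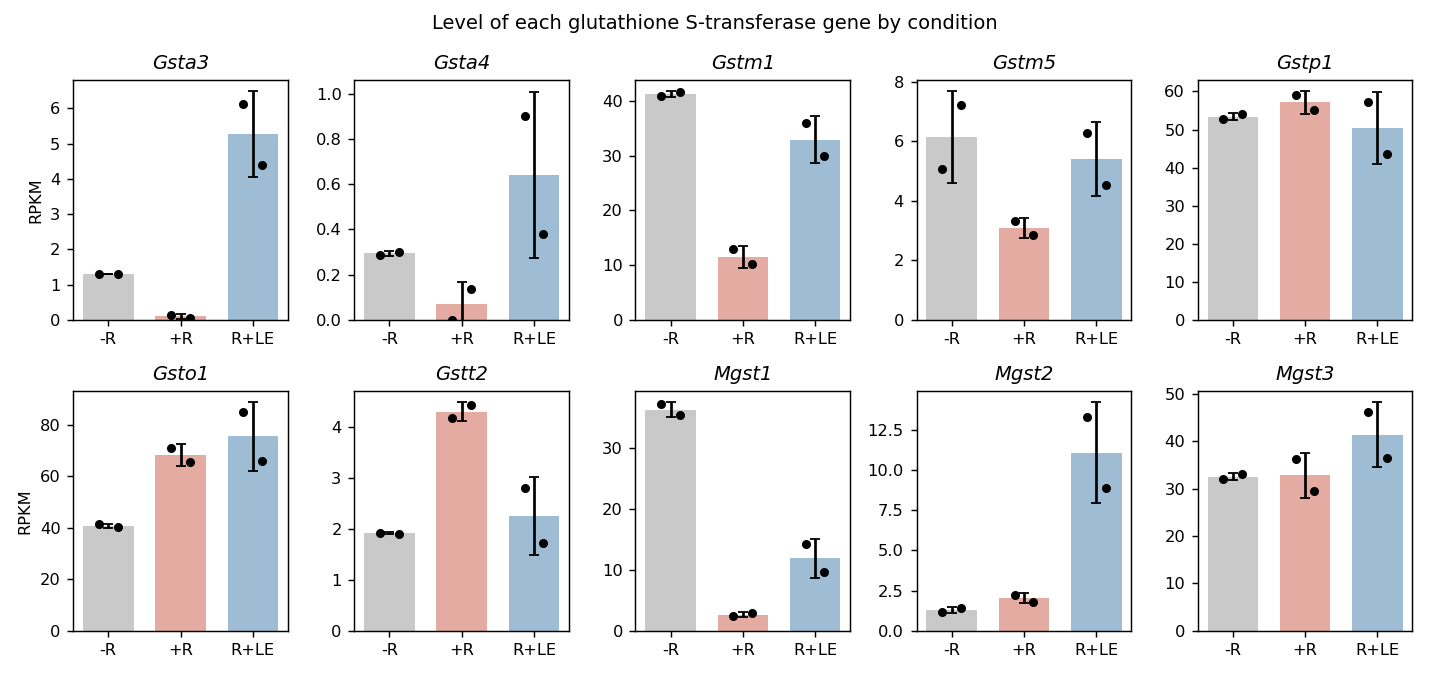
RPKM of each of the 10 genes in -R, +R and R+LE, with bars for the mean of 2 libraries, error bars for the SD (cut at 0) and points for the libraries, on axes that start at 0 and differ between panels. Mgst2 stands between 8.89 and 13.3 RPKM in R+LE against at most 2.25 RPKM elsewhere, while Gstm1 and Mgst1 are lowest in +R.

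In the alpha class, Gsta3, whose mouse enzyme detoxifies the epoxide of aflatoxin, lies on chromosome 1 of mm10 from 21240585 to 21265575. It was 1.295 and 1.303 RPKM in the -R libraries, 0.143 and 0.048 RPKM in +R, and 6.122 and 4.399 RPKM in R+LE. The groups did not overlap, and both R+LE libraries lay above every other library. These levels rest on 52 and 62 reads without RANKL, only 6 and 2 reads with RANKL, and 264 and 183 reads with LE. By summed reads scaled to mapped reads, R+LE was 55.3 times +R and 4.06 times -R, given as a description without an interval. By the same measure -R was 13.6 times +R (95% exact interval 6.68 to 32.3). That interval covers counting error only, and the low +R reads in it are also part of the contrast on which the gene was selected. On the log2(RPKM + 0.5) scale the fall from -R to +R was -1.60 (standard error, SE, 0.20, limma adjusted p = 1.00e-05), a comparison that uses the same +R libraries as the contrast on which the gene was selected. The size on this scale depended on the pseudocount, since it was -2.88 with 0.1, -1.07 with 1 and -3.77 with voom, limma's count method, on whole reads. For the same reason the difference between R+LE and +R was 3.26 with the pseudocount used, 4.802 with 0.1, 2.50 with 1 and 5.76 with voom.

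Gsta4, an alpha-class gene whose enzyme removes the lipid peroxidation product hydroxynonenal, lies on chromosome 9 from 78191966 to 78209349. Its mean over the 6 libraries was 0.335 RPKM, below the filter, so it was not tested. The -R libraries held 8 and 10 of its reads (0.287 and 0.302 RPKM), the +R libraries 0 and 4 (0 and 0.137 RPKM), and the R+LE libraries 27 and 11 (0.901 and 0.381 RPKM). For the library at 0 a count of 0 allows up to 0.103 RPKM. The order of the 3 groups was that of Gsta3, and no group overlapped another. By summed reads R+LE was 9.41 times +R, again as a description.

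In the mu class, Gstm1, an abundant enzyme of wide substrate range, lies on chromosome 3 from 108012250 to 108017973. It was 40.8 and 41.6 RPKM in -R, 12.9 and 10.1 RPKM in +R, and 35.9 and 29.9 RPKM in R+LE. Both +R libraries were far below the other 4, and R+LE came close to -R without overlapping it. From -R to +R it fell by 1.80 on the log2 scale (SE 0.15, limma adjusted p = 1.63e-07). In R+LE its mean was 79.9% of that in -R, and the log2 difference between them was -0.32 (SE 0.15, limma adjusted p = 0.119). Between R+LE and +R the log2 difference was 1.48. Of the 100-base words in its transcript, 7.73% also occur in transcripts of other genes in GENCODE, so a small part of its reads could have been split. Gstp1 also shares such words, and the other 8 members share none, Mgst1 as its longest GENCODE transcript.

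Gstm5, a mu-class gene on the same chromosome and the other strand, lies from 107895854 to 107898685 on chromosome 3. It was 5.06 and 7.23 RPKM in -R, 3.33 and 2.85 RPKM in +R, and 6.29 and 4.52 RPKM in R+LE. It had the direction of Gstm1 at a smaller size, and its R+LE and -R libraries overlapped. The log2 fold change with RANKL was -0.87 (SE 0.19, limma adjusted p = 0.00128), under the 2-fold threshold, and without -R replicate 1 it was -1.11 and was called. Between R+LE and +R the log2 difference was 0.70. An antisense transcript shares 178 bp of exon with Gstm5 on the opposite strand, and its reads were not separated.

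In the pi class, Gstp1, which besides conjugation binds and restrains the stress kinase JNK, lies on chromosome 19 from 4035411 to 4037912. Its level was 52.7 and 54.0 RPKM in -R, 59.2 and 55.0 RPKM in +R, and 57.1 and 43.7 RPKM in R+LE. The 2 R+LE libraries stood on both sides of the -R libraries. The log2 difference was 0.10 for +R against -R (SE 0.16, limma adjusted p = 0.644) and -0.09 in R+LE against -R (SE 0.16, limma adjusted p = 0.681), a sign that turned with quantile normalization and without R+LE replicate 2. Of the 100-base words of the Gstp1 transcript 52.8% also occur in Gstp2, so the split of reads between this pair is uncertain, and Gstp2 was listed at 0.504 RPKM or less in every library.

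In the omega class, Gsto1, a thioltransferase that also reduces dehydroascorbate, lies on chromosome 19 from 47854973 to 47864788. Its level was 41.4 and 40.3 RPKM in -R, 71.2 and 65.4 RPKM in +R, and 84.9 and 66.2 RPKM in R+LE. All 4 libraries with RANKL lay above both without it, and the +R and R+LE libraries overlapped. On the log2 scale the change with RANKL was 0.73 (SE 0.15, limma adjusted p = 0.00121) and 0.87 in R+LE against -R (SE 0.15, limma adjusted p = 0.000436). Both passed the adjusted p threshold and stayed under 2-fold, and without R+LE replicate 2 the value against -R was 1.05 and was called. The log2 difference between R+LE and +R was 0.13, and -0.04 without R+LE replicate 1.

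In the theta class, Gstt2 lies on chromosome 10 from 75831845 to 75834881. It was 1.92 and 1.90 RPKM in -R, 4.16 and 4.42 RPKM in +R, and 2.79 and 1.71 RPKM in R+LE. Its course was the inverse of that of Gstm1, with both +R libraries above the other 4 and the R+LE libraries on both sides of -R. The mean in +R was 2.25 times that in -R, but on the log2(RPKM + 0.5) scale the change was 0.99 (SE 0.19, limma adjusted p = 0.000459) and just missed the 2-fold threshold. It was called with a pseudocount of 0.1 (1.13), with voom (1.16) and without +R replicate 1 (1.03). Between R+LE and +R the log2 difference was -0.83, and -1.11 without R+LE replicate 1, which passed 2-fold. Against -R the value in R+LE was 0.16 (SE 0.19, limma adjusted p = 0.534).

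Among the microsomal enzymes, Mgst1, a conjugating enzyme and peroxidase of the endoplasmic reticulum and the outer mitochondrial membrane, lies on chromosome 6 from 138140527 to 138156754. It was 37.2 and 35.6 RPKM in -R, 2.38 and 2.95 RPKM in +R, and 14.2 and 9.67 RPKM in R+LE. These values were counted on a RefSeq transcript of 795 bases that is listed as non-coding, unlike those of the other members. Every group stood apart, with R+LE between the others. From -R to +R it fell by 3.55 on the log2 scale (SE 0.17, limma adjusted p = 2.69e-10). In +R its mean was 7.32% of that in -R, and in R+LE 32.8%. It remained below its -R level under LE, by a log2 change of -1.59 (SE 0.17, limma adjusted p = 3.48e-06). Between R+LE and +R the log2 difference was 1.96.

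Mgst2, whose enzyme can conjugate glutathione to a leukotriene precursor, lies on chromosome 3 from 51661179 to 51682674. It was 1.14 and 1.40 RPKM in -R, 2.25 and 1.81 RPKM in +R, and 13.3 and 8.89 RPKM in R+LE. It did not fall under RANKL. The log2 fold change from -R to +R was 0.51 (SE 0.19, limma adjusted p = 0.0379), under 2-fold, in a comparison that again shares the +R libraries with the selection. Summed reads were 411 in R+LE, 74 in +R and 49 in -R. Scaled to mapped reads, R+LE was by these 5.50 times +R and 8.69 times -R, as a description. The log2 difference was 2.18 against +R and 2.69 against -R.

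Mgst3, a microsomal enzyme with peroxidase activity, lies on chromosome 1 from 167372384 to 167393797. It was 32.1 and 33.0 RPKM in -R, 36.2 and 29.5 RPKM in +R, and 46.2 and 36.5 RPKM in R+LE. Both R+LE libraries lay above the other 4, R+LE replicate 2 by a small margin. The log2 difference was 0.01 for +R against -R (SE 0.16, limma adjusted p = 0.979) and 0.33 in R+LE against -R (SE 0.16, limma adjusted p = 0.12). The 3 microsomal genes thus had 3 different courses. Mgst1 fell under RANKL, Mgst2 was high only with LE, and Mgst3 passed no threshold in a tested comparison.

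**Figure D2:**
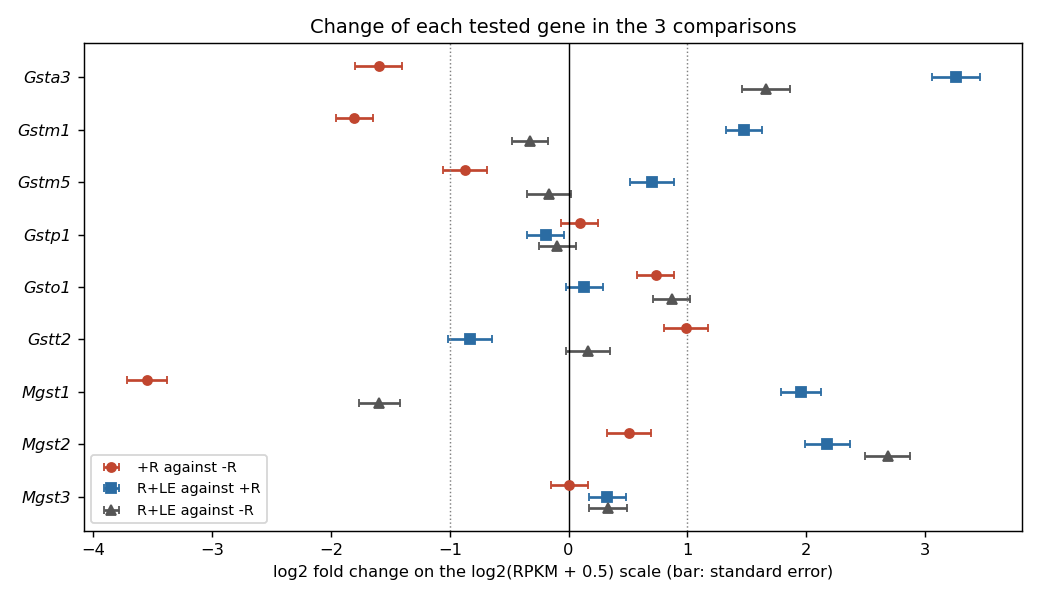
Log2 fold change (x axis, log2(RPKM + 0.5) scale) of the 9 tested genes for +R against -R (circles), R+LE against +R (squares) and R+LE against -R (triangles), with bars for the standard error and dotted lines at 2-fold. Mgst1, Gstm1 and Gsta3 lie left of the dotted line for RANKL, at -3.55, -1.80 and -1.60, and Gsta3, Mgst2, Mgst1 and Gstm1 lie right of it for R+LE against +R, a comparison that served to select the set.

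Between R+LE and +R, Gsta3, Mgst2, Mgst1 and Gstm1 were more than 2-fold higher and none of the 9 genes above the filter was more than 2-fold lower. Of all tested genes 1.46% were called higher and 1.78% lower in this comparison, and nothing is read from the difference because the set was selected on it. Between R+LE and -R, Gsta3 and Mgst2 were more than 2-fold higher, which the selection used and which is not a test. Of all genes 3.92% were called higher there, and nothing is read from it. Of the other 7 genes, which were tested, Mgst1 was called lower and none higher, where 6.36% of all genes were called lower. The median log2 fold change of the 9 genes was 0.01 for +R against -R, 0.70 for R+LE against +R and 0.16 for R+LE against -R, where the medians of all tested genes were 0.05, -0.05 and -0.01. The 3 comparisons share libraries pairwise, so their values stand side by side and are not independent.

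Markers of other cells moved together with some of these genes. The macrophage marker sum given above was lowest in +R, as were Gsta3, Gstm1 and Mgst1, but most of that sum came from Lyz2. Without Lyz2 the other 7 macrophage markers summed to 1670 to 1749 RPKM in -R, 876.9 to 1007 RPKM in +R and 835.3 to 1015 RPKM in R+LE, so that +R and R+LE overlapped. Single macrophage markers did not move alike. Adgre1, Cd14 and Mertk were lowest in +R. Csf1r and Cd68 had their lowest means with LE, at 185.2 and 336.5 RPKM, although Csf1r overlapped +R. Mean Itgam instead rose, from 70.5 RPKM without RANKL to 104.2 RPKM with LE. Fcgr1 fell under RANKL from a mean of 68.8 to 1.64 RPKM and stayed low with LE, at 1.85 RPKM. The osteoclast marker sum was highest in +R. The summed level of 6 neutrophil markers was 2.89 to 4.10 RPKM in -R, 0.383 to 0.581 RPKM in +R and 1.86 to 2.40 RPKM in R+LE, most of it from Mmp8, without which the other 5 summed to at most 0.083 RPKM in R+LE and to 0.127 to 0.143 RPKM in +R. That of 5 B cell markers was 1.57 to 1.96 RPKM in -R, 0.099 to 0.105 RPKM in +R and 0.048 to 0.124 RPKM in R+LE, and that of 6 erythroid markers was 0.5 to 0.615, 0.068 to 0.203 and 0.157 to 0.299 RPKM. Stromal markers, 8 in number, summed to 15.4 to 17.0 RPKM in -R, 10.97 to 15.1 RPKM in +R and 8.07 to 8.99 RPKM in R+LE. T and NK cell markers (7 genes) summed to at most 0.367 RPKM in any library and mast cell and basophil markers (6 genes) to at most 0.082 RPKM. The part of these cells in the GST values was not tested.

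Per transcript length, the summed level of the 10 genes was 213.9 and 216.6 RPKM in -R, 191.8 and 172.3 RPKM in +R, and 267.9 and 205.8 RPKM in R+LE. The R+LE libraries stood on both sides of -R, and both +R libraries were below -R. In -R the order of level was Gstp1, then Gstm1 and Gsto1, whose libraries overlapped, then Mgst1 and Mgst3. Gsta3 and Mgst2 also overlapped in -R, near the bottom. In both +R libraries Gsto1 ranked first with 37.1% and 38.0% of the sum, followed by Gstp1 and Mgst3, while Gstm5 and Mgst1 overlapped at a low level. Mgst1 held 17.4% and 16.4% of the sum without RANKL, 1.24% and 1.71% with RANKL, and 5.31% and 4.70% once LE was added. Mgst2 held at most 1.17% in the 4 libraries without LE and 4.97% and 4.32% in R+LE, where its range overlapped that of Mgst1. In both R+LE libraries Gsto1 was again first and Gstp1 second, although Gstp1 and Mgst3 overlapped across the libraries.

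**Figure D3:**
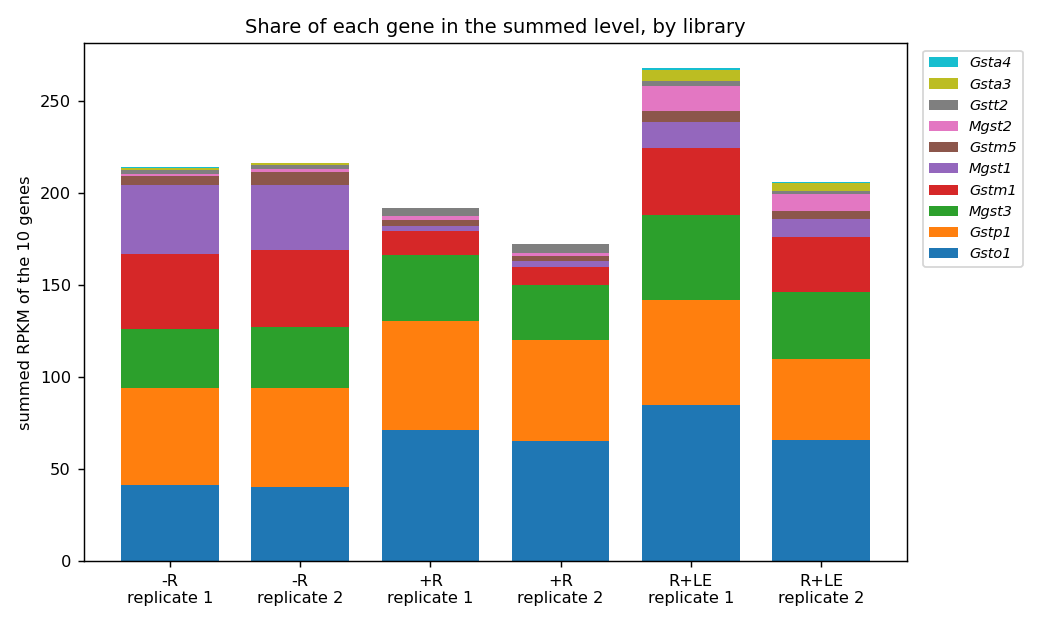
Summed RPKM (y axis, from 0) of the 10 genes in each of the 6 libraries, divided by gene. The Mgst1 segment, 17.4% and 16.4% of the sum in -R, is 1.24% and 1.71% in +R, and the Mgst2 and Gsta3 segments are widest in the R+LE libraries.

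For Gsta3 and Mgst2, the genes with the most similar course were found by the smallest Euclidean distance between gene-centred log2(RPKM + 0.5) values over the 6 libraries. For Gsta3 they were Pla2g7, which encodes the plasma form of platelet-activating factor acetylhydrolase, at a distance of 1.35, Treml4 at 1.45 and Serpinb1b at 1.58. Pla2g7 was 32.6 and 33.7 RPKM in -R, 24.5 and 18.7 RPKM in +R, and 93.7 and 78.8 RPKM in R+LE, which is the order of Gsta3 with a smaller fall under RANKL. For Mgst2 they were Slc39a4, a zinc importer gene, at 0.59, Adh7, an alcohol dehydrogenase gene, at 0.64 and Dlgap1 at 0.85. Slc39a4 was 0.692 and 0.571 RPKM in -R, 0.722 and 0.810 RPKM in +R, and 5.73 and 4.26 RPKM in R+LE, so it too was high in both R+LE libraries and low in the other 4. The distance between Gsta3 and Mgst2 themselves was 2.12. Counted from Gsta3, Mgst2 ranked 36 among all other tested genes, and counted from Mgst2, Gsta3 ranked 144.

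The other genes of the 2 families give the setting. Of 18 further cytosolic and kappa GST genes, 8 passed the filter, and 3 of these were called higher and 1 lower in +R than in -R. Among all tested genes 6.58% were called higher and 8.92% lower there. The 3 called higher were Gstt1, Gstt3 and Gstp3. Gstt1, on chromosome 10 like Gstt2, was 0.132 and 0.334 RPKM in -R, 14.0 and 12.5 RPKM in +R, and 3.20 and 2.77 RPKM in R+LE. It rose by 4.24 on the log2 scale with RANKL (SE 0.17, limma adjusted p = 4.92e-11) and fell by 1.98 in R+LE against +R (SE 0.17, limma adjusted p = 2.56e-06). Like Gstt2, Gstt1 was highest in both +R libraries, but in R+LE it stayed above both -R libraries, where Gstt2 overlapped them. Gstt3 also rose under RANKL, with a log2 fold change of 1.12 (limma adjusted p = 7.26e-05). Gstp3 rested on few reads, 0 and 4 for -R, 32 and 29 for +R, 12 and 7 for R+LE, and was called higher with RANKL and lower with LE. In the mu cluster Gstm2 was 1.10 and 1.18 RPKM in -R, 0.319 and 0.447 RPKM in +R, and 1.96 and 1.29 RPKM in R+LE, with a log2 fold change of 1.25 in R+LE against +R (limma adjusted p = 0.00111). Gstm2 was the gene of this list called higher in R+LE against +R, and against -R the call was for Gstt1 (log2 fold change 2.26, limma adjusted p = 8.99e-08).

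Hpgds, a sigma-class GST that makes prostaglandin D in blood cells, was the gene called lower with RANKL, at 13.7 and 14.7 RPKM in -R, 2.08 and 2.34 RPKM in +R, and 3.15 and 2.79 RPKM in R+LE. It stayed low with LE, with a log2 fold change of -2.08 in R+LE against -R (limma adjusted p = 2.76e-08) and 0.36 in R+LE against +R (limma adjusted p = 0.139). Gstm4, Gstk1 and Gstz1 were called in no comparison. In the MAPEG family both tested relatives of the Mgst genes were called lower in +R than in -R, where 8.92% of all tested genes were. Alox5ap, the helper protein of leukotriene synthesis, was 255.8 and 262.04 RPKM in -R, 76.2 and 63.9 RPKM in +R, and 166.8 and 137.7 RPKM in R+LE, and was called higher in R+LE than in +R (log2 fold change 1.11, limma adjusted p = 0.000306). Ltc4s, which makes a cysteinyl leukotriene, stood at 8.49 and 9.05 RPKM without RANKL, at 3.04 and 3.04 RPKM with it, and at 5.09 and 3.37 RPKM with LE as well, and was called in neither comparison with R+LE. Its log2 fold change in R+LE against -R was -0.995 (limma adjusted p = 0.000292) and just missed the 2-fold threshold. Alox5ap and Ltc4s had the order of Mgst1, with R+LE between -R and +R.

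**Figure D4:**
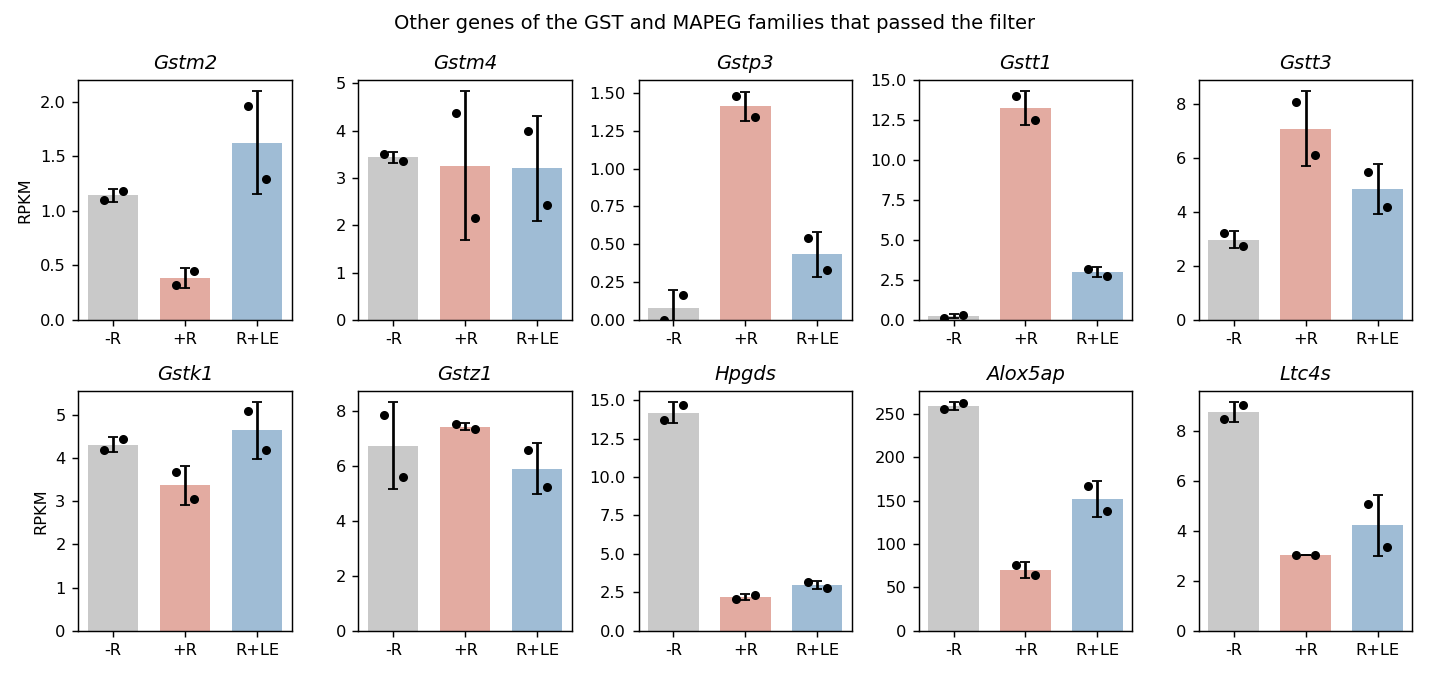
RPKM of the 10 further genes of the GST and MAPEG families that passed the filter, in -R, +R and R+LE, drawn as bars for the mean of 2 libraries, error bars for the SD (cut at 0) and points for the libraries. Gstt1 and Gstp3 are highest in +R, whereas Hpgds, Alox5ap and Ltc4s are highest in -R.

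Genes that supply glutathione to these enzymes were counted in the same way. Of 6 such genes, all tested, 3 were called lower in +R than in -R, where 8.92% of all genes were, and none higher. In R+LE against +R, 2 were called higher, where 1.46% of all genes were, and none lower. Gclm, the modifier subunit of the enzyme of the first step of synthesis, was 104.9 and 103.5 RPKM in -R, 14.9 and 15.2 RPKM in +R, and 110.8 and 82.0 RPKM in R+LE, so the R+LE libraries stood on both sides of -R, while Gclc, the catalytic subunit, reached 25.3 and 21.1 RPKM in R+LE against 45.8 and 60.3 RPKM in -R. The log2 fold change of R+LE against -R was -0.13 for Gclm (limma adjusted p = 0.574) and -1.17 for Gclc (limma adjusted p = 4.04e-05), so of the pair only Gclc was called lower. Slc3a2, called lower with RANKL like Gclm and Gclc, stayed low with LE. It was 141.8 and 130.8 RPKM in -R, 32.0 and 35.0 RPKM in +R, and 42.0 and 37.7 RPKM in R+LE. Slc3a2 was not called in R+LE against +R and was called lower against -R (log2 fold change -1.76, limma adjusted p = 1.80e-07).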

How the data were processed

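RNA-seq was analysed for 6 libraries, 2 each of -R, +R and R+LE, grouped by the condition and replicate number in the sample labels. The authors aligned reads to mm10 (TopHat in the study's methods, HISAT2 in the submitters' processing notes, which also name DESeq2), counted reads on exons of 1 transcript per gene on either strand with HOMER, and deposited RPKM under column titles that say FPKM. Tool versions are not given in the sources used here. The transcript length that the authors' table gives was used with the steps between values to recover whole reads, and all values checked came within 0.1 of a whole read. No column of sample values was left unused.

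Group means of log2(RPKM + 0.5) were estimated by limma (3.58.1, under R 4.3.3) using moderated variances (eBayes with a trend), where the mean of a gene reached 0.5 RPKM, with Benjamini-Hochberg adjustment over all 11595 genes tested. Tables and figures were made with matplotlib 3.10.9, pandas 2.3.3 and numpy 2.4.6 on Python 3.11.15. Scripts were tested on simulated data. The 26 gene symbols that a spreadsheet had turned into dates were restored from transcript identifiers. The members, the gene lists and the tests were chosen with earlier results of these data known. Genes named are the 10 members, genes of the fixed GST, glutathione and marker lists, and the 3 genes nearest to Gsta3 and to Mgst2. Exon overlaps and shared 100-base words came from GENCODE M21 (GRCm38).

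Results were recomputed with voom on the recovered reads, with a replicate block, with quantile normalization or median centring, without a variance trend, in fits of 2 groups, with the filter removed or raised to 1 RPKM, with pseudocounts of 1 and 0.1, and with any 1 library removed. Depth limits precision, as 3 reads or fewer cannot be told from none, and intervals cover counting error only.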

Additional observations from a re-analysis of the deposited data

How the results depend on the processing

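R+LE against +R was left out here, as was R+LE against -R for Gsta3 and Mgst2. The other 16 log2 fold changes of GST genes were recomputed under 16 alternatives. Those of Gsta3 and Mgst2 in +R against -R are among them and share the +R libraries with the selection. Of the 256 values, 244 kept their direction and their side of the threshold. Part of this agreement was fixed in advance. Another filter, no variance trend, fits of 2 groups and the replicate block leave a log2 value as it is. So does removing a library outside the comparison, and in all these fits only the adjusted p-value could change. Of the 256 values, another 5 crossed the threshold in the same direction, and 7 changed sign, all of them for values that were not called. In R+LE against +R, given as a description, 2 more changed sign. With quantile normalization Gstp1 was 0.0067 in R+LE against -R. The other 8 sign changes came from leaving out 1 library. Over those fits, R+LE against -R ranged from -0.40 to 0.071 for Gstm5 (above 0 without -R replicate 2 or R+LE replicate 2), from -0.29 to 0.098 for Gstp1 (above 0 without R+LE replicate 2) and from -0.12 to 0.45 for Gstt2 (below 0 without R+LE replicate 1). R+LE against +R ranged from -0.38 to 0.0021 for Gstp1 (above 0 without R+LE replicate 2) and from -0.045 to 0.31 for Gsto1 (below 0 without R+LE replicate 1). For Mgst3, +R against -R ranged from -0.14 to 0.15 (below 0 without -R replicate 1 or +R replicate 1). With 1 library left out, the number of members called ranged from 3 to 4 for +R against -R, and the lone library of a group was then assumed to vary like the other groups.

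With the replicate number as a block, 3 members were called in +R against -R and 14 of the other GST and glutathione genes were called in at least 1 comparison, as without the replicate block. Same-numbered replicates deviated together with correlations over genes of -0.05 between -R and +R, 0.11 between -R and R+LE and 0.25 between +R and R+LE, and nothing in the labels ties the numbers to a shared culture or day. Gsta4 was below the filter, and with no filter its log2 values were -0.49 with RANKL, 0.98 with LE beside RANKL, and 0.48 for R+LE against -R. Genes with few reads, Gsta4 and, in +R, Gsta3, are limited most by depth.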

Other observations

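Genes that use or remove glutathione without conjugating it to other compounds are given here beside the conjugating enzymes. Of 6 glutathione peroxidase genes, Prdx6 included, 5 passed the filter, none was called in any comparison, and Gpx1 and Gpx4 had the highest levels, with means of 589.7 and 187.4 RPKM in -R, 685.3 and 217.2 RPKM in +R, and 655.3 and 214.7 RPKM in R+LE. At an adjusted p-value below 0.05 without the fold threshold, 1 of the 5 passed in +R against -R, 0 in R+LE against +R and 1 in R+LE against -R in limma. Of all 11595 tested genes, 5262, 1397 and 3974 passed in these comparisons, and 17.4% were called in at least 1. Of 7 turnover genes, 3 were tested, and Chac1, which degrades glutathione inside the cell, was called higher in +R and lower in R+LE. Chac1 was 0.696 and 0.458 RPKM in -R, 2.91 and 3.52 RPKM in +R, and 0.546 and 0.588 RPKM in R+LE, the inverse of the course of Gstm1.

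Among 5 exporters of glutathione conjugates, 4 were tested, and Abcc3 was called in all 3 comparisons. It was 44.4 and 44.1 RPKM in -R, 4.63 and 5.28 RPKM in +R, and 15.6 and 13.3 RPKM in R+LE, so that R+LE lay between -R and +R, as for Mgst1. Abcc1 was 62.9 and 68.2 RPKM in -R, 44.1 and 39.6 RPKM in +R, and 86.4 and 72.7 RPKM in R+LE, with a log2 fold change of 0.92 in R+LE against +R (limma adjusted p = 0.000738), under 2-fold. Of 11 regulators of GST genes, 9 were tested. Ahr, the aryl hydrocarbon receptor, was called higher in both conditions with RANKL than in -R, and a fall with LE under RANKL was called for Maff, a small Maf protein. The other small Maf genes listed, Mafg and Mafk, went the other way. Their means were 13.5 and 6.24 RPKM in +R and 18.1 and 7.26 RPKM in R+LE, and neither was called. The transcript of Nrf2, Nfe2l2, was 43.8 and 47.3 RPKM in -R, 38.0 and 31.1 RPKM in +R, and 47.5 and 39.9 RPKM in R+LE. Its log2 fold change was -0.40 in +R against -R (limma adjusted p = 0.0452), under 2-fold. In R+LE against +R the value of 0.34 did not pass the test (limma adjusted p = 0.2). Without the fold threshold, 6 of the 9 regulators passed an adjusted p-value below 0.05 in +R against -R, as did 5262 of all 11595 genes. Over all 56 listed genes of the GST families and of glutathione metabolism other than the 10 members, 37 were tested, and 14 were called in at least 1 comparison, as were 17.4% of all tested genes. The list was chosen with earlier results of these data known, and Gstp3, which was called, passed the filter through +R only.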
